A study of Mus musculus with 4 samples.

Results

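Among peritoneal cells of mice sorted for F4/80, a macrophage surface protein, a small set of barcodes carried the transcripts of connective tissue mast cells. A barcode stands for 1 droplet and its RNA was counted as molecules with unique identifiers (UMIs). Mast cell barcodes were chosen by their counts: at least 300 detected genes, at most 20% of UMIs from mitochondrial genes, at least 20 UMIs summed over Cma1, Mcpt4, Cpa3 and Tpsb2, and no UMI of the B cell gene Cd79a or of the T cell genes Cd3d, Cd3e and Cd3g. This gave 113 of the 23257 barcodes under the same gene and mitochondrial limits, out of 26811 barcodes in all. The other 23144 barcodes under those limits served as the comparison; 17876 of them had 10 or more UMIs of the macrophage genes C1qa, C1qb and C1qc and no Cd79a UMI.

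The labels describe 4 groups with 1 sample each, all from mice aged 24 weeks. They were Apoe-/- mice given a high-fat diet and 3 mg of anti-CVI-mAb, an antibody against collagen VI; Apoe-/- mice given the same diet and PBS; Apoe-/- mice on a normal diet and PBS; and C57BL/6 mice on a normal diet and PBS. The diet held 21% fat and 0.15% cholesterol and was fed for 20 weeks from the age of 4 weeks, a normal diet followed from a week before the first immunization, and injections of 200 µL into the peritoneal cavity were given at week 21. The Apoe-/- mice of the diet groups were male and on a C57BL/6 background; how many animals each sample pooled is not given in the labels. All samples came in 1 matrix whose barcodes end in a suffix from 1 to 4, and no label ties a suffix to a sample. Values are therefore given by suffix, no comparison between diets, genotypes or antibody treatment was possible, and there are no replicates and no tests. Intervals are 95% intervals of counting error only, and cells vary beyond them.

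Mast cells are long-lived resident cells that store proteases, histamine and, in rodents, serotonin in granules held together by the proteoglycan serglycin, and release them when IgE receptors or Mrgpr receptors are engaged. Connective tissue mast cells, the type found in the peritoneal cavity, carry chymase and tryptase with carboxypeptidase A, whereas mucosal mast cells of the gut carry other chymases. They depend on the receptor Kit and its ligand, and their genes are controlled by GATA2 and MITF among other factors. The peritoneal cavity is a usual source of mature mouse mast cells, which are rare there beside macrophages and B cells.

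The DNA just before the start of 4 genes that mark these barcodes is printed to show the GATA words, the short sequence bound by factors such as GATA2. The genes are Cma1, encoding chymase; Mcpt4, encoding another chymase; Cpa3, encoding carboxypeptidase A3; and Ms4a2, encoding the beta chain of the IgE receptor. Each run holds the 250 bases before the RefSeq start on GRCm38.p6, written 5′ to 3′ on the gene's strand, which is the minus strand for all 4. Capitals mark the word AGATAA, the word AGATAG, the word TGATAA or the word TGATAG on either strand; none of these overlap in the 4 windows. The windows are chr14:55944676-55944925 for Cma1, chr14:56062311-56062560 for Mcpt4, chr3:20242182-20242431 for Cpa3 and chr19:11623720-11623969 for Ms4a2.
Cma1: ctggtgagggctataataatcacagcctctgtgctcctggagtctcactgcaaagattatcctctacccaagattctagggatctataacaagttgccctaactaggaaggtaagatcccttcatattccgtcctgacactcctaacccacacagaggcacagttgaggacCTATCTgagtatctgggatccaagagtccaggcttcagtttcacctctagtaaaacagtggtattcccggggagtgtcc
Mcpt4: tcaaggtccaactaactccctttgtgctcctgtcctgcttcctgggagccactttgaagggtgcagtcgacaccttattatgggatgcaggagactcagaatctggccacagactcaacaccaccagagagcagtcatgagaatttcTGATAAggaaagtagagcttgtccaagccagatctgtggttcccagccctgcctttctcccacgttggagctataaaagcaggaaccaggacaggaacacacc
Cpa3: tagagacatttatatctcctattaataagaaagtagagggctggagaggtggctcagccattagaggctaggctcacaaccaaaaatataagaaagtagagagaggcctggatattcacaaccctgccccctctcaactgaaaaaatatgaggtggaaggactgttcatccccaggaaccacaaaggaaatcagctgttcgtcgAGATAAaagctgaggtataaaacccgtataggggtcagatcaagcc
Ms4a2: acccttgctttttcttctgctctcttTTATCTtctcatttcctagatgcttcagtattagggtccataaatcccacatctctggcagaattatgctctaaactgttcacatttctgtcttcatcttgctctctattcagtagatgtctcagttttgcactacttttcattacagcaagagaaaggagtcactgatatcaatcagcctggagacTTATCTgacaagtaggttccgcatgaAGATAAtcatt
Counted from the start to the word's first base, the word lay 79 bases before Cma1, 103 before Mcpt4 and 46 before Cpa3, and Ms4a2 had 3, at 224, 37 and 11 bases. At least 1 such word was present in 26.5% of all 32851 windows of this length, so a match says nothing of binding. Windows of Mrgprb1, with 2 words, and of Mrgprb2, Fcer1a, Hdc and 1 of 2 starts of Tph1 also held one. None was found in the windows of Kit or Gata2. The E-box letters CANNTG, present in 66.2% of windows, occurred before Cma1 and Cpa3 but not before Mcpt4 or Ms4a2.

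The 4 rule genes summed to a median of 100 UMIs per mast cell barcode, with a range of 23 to 1413. As a share of a barcode's UMIs they made up a median of 6.67%, from 0.447% to 28.6%, and 7.21% of all UMIs of the set. The members nearest to the threshold had 23, 28, 30, 36 and 37 UMIs, and the barcodes nearest below it had 17, 12, 9, 5 and 5, so few barcodes lay near it. Of 139 barcodes with 20 or more such UMIs, 6 were lost to the gene limit, 15 to the mitochondrial limit and 5 to B or T cell genes. Those 5 held 28, 45, 189, 195 and 202 UMIs of the rule genes and remain among the other barcodes, where they add to the mast cell transcripts counted there.

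Mast cell barcodes were shallower than the rest. Their median was 1814 UMIs and 939 genes, against 11111 UMIs and 2869 genes in the other barcodes, and their median mitochondrial share was 11.3%, against 4.52%. The part of depth and mitochondrial share in the levels given here was not tested. With 236261 UMIs in the whole set, against 261901121 in the others, a level of 50 UMIs per 1000000 (CPM) in mast cell barcodes rested on about 11.8 UMIs. A count of 0 there allows up to 12.7 CPM, taken as 3 UMIs.

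By suffix, 77, 7, 21 and 8 barcodes of suffixes 1 to 4 were mast cell barcodes. That was 1.54% (exact binomial interval 1.22 to 1.92) of 5002 barcodes with suffix 1, 0.109% (0.0438 to 0.224) of 6426 with suffix 2, 0.378% (0.234 to 0.578) of 5552 with suffix 3 and 0.127% (0.0550 to 0.251) of 6277 with suffix 4. Suffix 1 held most of the members and its interval lay apart from the other three, suffix 3 lay above suffix 2 and reached into the interval of suffix 4, and suffixes 2 and 4 did not differ beyond counting error. Pooled levels are therefore mainly those of suffix 1, which held 159268 of the mast cell UMIs. Under the stricter limits of 500 genes and 10% mitochondrial UMIs, 43 mast cell barcodes were left, at 0.748% of suffix 1 and 0.151% of suffix 3. The sort was for F4/80, so these shares describe the sorted cells and not the peritoneal cavity.

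**Figure D1:**
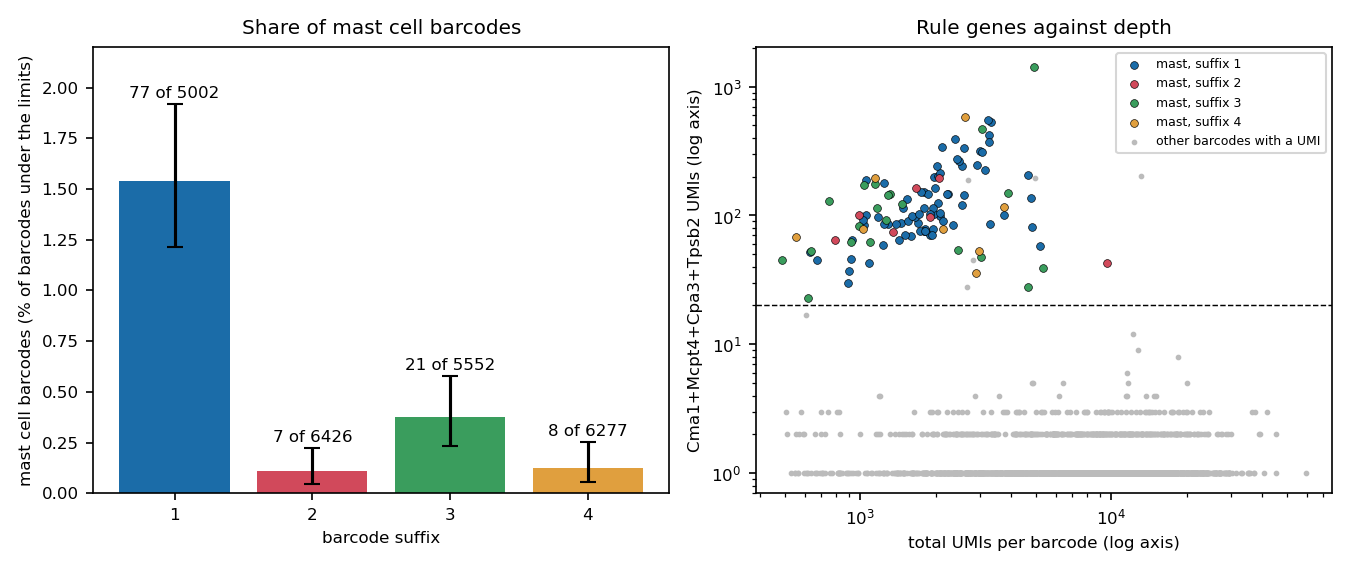
Left, mast cell barcodes as a percentage of the barcodes under the gene and mitochondrial limits for each barcode suffix, with exact binomial 95% intervals; suffix 1 stands at 1.54% and the others at or below 0.378%. Right, UMIs of the 4 rule genes against total UMIs for each barcode, both on log axes, with mast cell barcodes coloured by suffix, other barcodes with at least 1 such UMI in grey, and the threshold of 20 UMIs dashed; the grey points above it are the 5 barcodes with B or T cell gene UMIs.

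The label was checked against 15 mast cell markers, of which the rule used 4. All 15, the 11 outside the rule included, were at 50 CPM or more and at least 4-fold (log2 of 2) above the other barcodes; 311 of 3523 genes with 50 CPM in either set, or 8.83%, passed that rule in the same direction, and 206, or 5.85%, passed it as lower. The same contrast chose the members, so all its values are descriptions. Of 6 genes outside the rule, Mrgprb1, Tph1, Kit, Fcer1a, Hdc and Gata2, at least 3 had a UMI in 102 of 113 mast cell barcodes and in 5 of 23144 others, and no mast cell barcode lacked all 6. The markers outside the rule thus fit the label mast cell, although the labels call the sorted cells macrophages.

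The 4 rule genes encode proteases of the granule and were all present in 107 barcodes, which the rule largely sets. By pooled level in mast cell barcodes Cma1 ranked 1, Mcpt4 5, Cpa3 9 and Tpsb2 10 among 31253 genes. The rule gene Cma1, chymase, had 29567, 22326, 43973 and 45196 CPM in mast cell barcodes of suffixes 1 to 4, against 23.2, 1.53, 2.98 and 2.57 CPM in the other barcodes of those suffixes. Mcpt4, the chymase closest to the human enzyme in function, had 16569.6, 6426, 23322 and 13173 CPM in mast cell barcodes, against 21.5, 0.394, 1.35 and 1.27 CPM in the others. Both were far apart between the sets in every suffix, and the level in the other barcodes was highest in suffix 1. Cpa3, which trims peptides from their carboxyl end, had 13669, 5391, 11023 and 6498 CPM in mast cell barcodes and 11.9, 0.461, 0.923 and 0.908 CPM in the others. Tpsb2, encoding the tryptase mMCP-6, had 12112, 5936, 9002 and 5679 CPM in mast cell barcodes and 17.4, 0.339, 0.896 and 0.532 CPM in the others. Cma1 was the highest of the 4 in 101 of 113 barcodes and made up a median of 46.5% of their summed UMIs, with medians of 21.2% for Mcpt4, 18.3% for Cpa3 and 13.95% for Tpsb2. Levels by suffix depend on 17 mast cell barcodes that also held 10 or more UMIs of macrophage genes, described further on, which made up 19.0, 52.3, 43.5 and 56.2% of the mast cell UMIs of suffixes 1 to 4. A single one of them held 9610 of the 18364 mast cell UMIs of suffix 2, with 403 UMIs of macrophage genes and 43 of the rule genes. Without the 17, Cma1 was at 33735, 44094, 66028 and 84526 CPM in mast cell barcodes, Mcpt4 at 19308, 13023, 37444 and 24743 CPM, Cpa3 at 15527, 10281, 17934 and 13241 CPM, and Tpsb2 at 13823, 11766, 14441 and 11101 CPM. Mast cell levels printed by suffix for other genes include the 17 unless it is said that they do not. These are counts of transcript ends, for which gene length has little part, and they are no measure of protein.

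Of the 18 proteases listed, 11 reached 50 CPM in either set, 8 were higher by the rule and none lower. The median log2 ratio was 11.76 over the 11, beside 0.18 over all 3523 genes. The 8 include the 4 rule genes, which chose the barcodes, and the median is the ratio of the rule gene Tpsb2. Both the count and the median are therefore set in part by the choice of members. Tpsg1, encoding transmembrane tryptase, had 279 CPM pooled over mast cell barcodes and 0.0496 CPM in the others; its UMIs in suffixes 1 to 4 numbered 51, 2, 12 and 1. Prss34, encoding mMCP-11, a protease known from basophils and mast cells, had 584 CPM, against 0.111 CPM. Tpsab1, encoding the tryptase mMCP-7, was lower than Tpsb2 at 174 CPM, against 0.0573 CPM in the others. By suffix Tpsab1 had 119, 54.5, 217 and 703 CPM, the highest value resting on 12 UMIs in suffix 4. Tpsb2 and Tpsab1 are close copies, as are the Mcpt genes, and reads could have been divided between them in the counting. Genes of lysosomal proteases did not follow the granule genes: Ctsd, a protease of lysosomes in most cells, had 1049.7 CPM in mast cell barcodes and 1371 CPM in the others.

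The chymases lie together on chromosome 14 in GENCODE M21 on GRCm38, with Cma1 at 55941451 to 55944675, Mcpt1 at 56017971 to 56020384, Mcpt9 at 56026864 to 56030495, Mcpt2 at 56042041 to 56044642, Mcpt4 at 56059629 to 56062313, Mcpt8 at 56082166 to 56085273 and Ctsg at 56099881 to 56102574. Within this stretch, Cma1 and Mcpt4 were abundant whereas Mcpt1, Mcpt2 and Mcpt9, genes of mucosal mast cells, had 0 UMIs in mast cell barcodes. Cma2 had 67.7 CPM, against 0.0229 CPM, and Ctsg, cathepsin G, 46.6 CPM, against 0.267 CPM. The Ctsg level rests on few UMIs, of which 5 were in a single barcode of suffix 3 and 2 in a barcode of suffix 2. The tryptases lie on chromosome 17, with Prss34 at 25298394 to 25300165, Tpsab1 at 25343245 to 25345562, Tpsb2 at 25366305 to 25369098 and Tpsg1 at 25369273 to 25374442. All 4 of those genes passed the rule as higher. Cpa3 stands alone on chromosome 3 at 20215620 to 20242181.

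Markers of mucosal mast cells and basophils were also checked. Of 6 mucosal mast cell markers, 4 had 0 UMIs, including the 3 chymases and Itgae, the integrin alpha E chain; Runx3, a transcription factor, and Hpgd, which breaks down prostaglandins, were higher by the rule. Mcpt8, the defining protease of mouse basophils, had UMIs in 2 of 113 barcodes, 1 in suffix 2 with 1 UMI and 1 in suffix 3 with 7 UMIs. Both of these also held 5 UMIs of Gzmb, the granzyme B gene, and no UMI of Mcpt4, Mrgprb1 or Tph1. They differed in other mast cell genes. The suffix 2 barcode had 54 UMIs of Cma1, 19 of Cpa3, 24 of Tpsb2 and 4 of Mrgprb2. The suffix 3 barcode had 14 of Cma1, 40 of Cpa3 and 0 of Tpsb2 and Mrgprb2. Both barcodes were kept, since the rule keeps them. Of 11 basophil markers 8 were tested and all 8 were higher, but Fcer1a, Ms4a2, Gata2 and Hdc also stand in the mast cell list.

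Genes that build and fill the granule were higher in 7 of the 10 tested of 16, with none lower and a median log2 ratio of 2.84. Srgn, encoding serglycin, the core protein that carries heparin, had 3428, 4356, 7341 and 6498 CPM in mast cell barcodes of suffixes 1 to 4, against 593, 1228, 1869 and 1459 CPM in the others. It was above the others in every suffix, yet its pooled log2 ratio of 1.68 (1.59 to 1.76) was under 2; it was 2.25 with the other barcodes weighted to the suffixes of the mast cell barcodes and 2.09 without suffix 1. Ndst2, the sulfotransferase needed for heparin, had 487 CPM in mast cell barcodes and 32.9 CPM in the others. Papss2, which makes the sulfate donor, had 389 CPM, against 3.43 CPM, and Hs6st2, a heparan sulfate sulfotransferase among the 25 genes with the largest ratio, had 229 CPM, against 0.0535 CPM. Slc26a2, a sulfate transporter, was under 50 CPM in both sets, with 46.6 CPM, against 46.5 CPM. Vwa5a, a gene of a von Willebrand factor A domain protein, stood next to Srgn in level at 1041 CPM, against 60.9 CPM.

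For biogenic amines, 5 of 7 tested of 15 listed genes were higher and none lower, with a median log2 ratio of 8.59. All 5 were under 50 CPM in the others and were tested only through their mast cell level. Over all 15 listed genes the median was 6.13. Hdc, histidine decarboxylase, which makes histamine, had 948, 327, 987 and 293 CPM in mast cell barcodes of suffixes 1 to 4, against 3.14, 3.73, 23.1 and 15.0 CPM in the other barcodes. Tph1, tryptophan hydroxylase, the first step to serotonin outside the brain, had 1193, 762, 818 and 995 CPM in mast cell barcodes, against 0.959, 0.0950, 0.0413 and 0.0649 CPM in the others. Tph1 was thus almost absent outside mast cell barcodes, whereas Hdc was present at a low level in the others of suffixes 3 and 4. Both genes had a UMI in 64 mast cell barcodes and at least 1 of them in 100. Slc18a2, the vesicle carrier that loads amines into granules, had 639 CPM, against 0.557 CPM, and Slc6a4, the serotonin transporter of the cell surface, 461 CPM, against 0.0878 CPM. Maob, which breaks down amines, had 139.7 CPM, against 0.367 CPM. Ddc, the decarboxylase that completes serotonin, had UMIs in 2 mast cell barcodes, and Hnmt, which inactivates histamine, in 0.

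The IgE receptor has an alpha chain that binds IgE, a beta chain and a shared gamma chain. Fcer1a, the alpha chain, had 1287, 708, 2190.2 and 1815 CPM in mast cell barcodes of suffixes 1 to 4, against 0.881, 0.0271, 0.193 and 0.0779 CPM in the others. Ms4a2, the beta chain, had 603, 490.1, 289 and 351 CPM, against 0.337, 0.0271, 0.0138 and 0.0260 CPM. Both separated the sets in every suffix. Fcer1g, the gamma chain that macrophages use for IgG receptors too, had 2361, 3594, 3923 and 3805 CPM in mast cell barcodes, against 595, 1276, 1352 and 1280.2 CPM in the others, and its pooled log2 ratio of 1.24 (1.13 to 1.35) was under the rule. Of 21 genes of the receptor and its early signalling, 14 were tested, 6 were higher and none lower, with a median log2 ratio of 1.44. Lat2, an adaptor, had 770.3 CPM, against 96.4 CPM, and Inpp5d, the phosphatase SHIP1 that restrains the receptor, 453 CPM, against 90.7 CPM. The kinases Lyn and Syk, shared by both sets, had 279 and 114 CPM in mast cell barcodes and 255 and 169.7 CPM in the others.

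Kit, the receptor for stem cell factor, had 1563, 327, 891 and 409.8 CPM in mast cell barcodes of suffixes 1 to 4, against 3.19, 0.556, 0.703 and 0.376 CPM in the others. Il1rl1, the receptor for interleukin-33, had 1946, 599, 1059 and 176 CPM in mast cell barcodes, against 10.0, 1.59, 2.37 and 2.56 CPM in the others. Both were higher in every suffix, and within mast cell barcodes the highest value of each was in suffix 1. These levels include the 17 barcodes with macrophage transcripts, which made up 19.0% of mast cell UMIs in suffix 1 and 43.5 to 56.2% in suffixes 2 to 4. Without the 17, the interval of the ratio of suffix 1 over suffix 3 held 0 for both genes. The suffix 4 level of Il1rl1 equals 3 UMIs. A UMI of Kit was found in 94 of 113 barcodes, and of both Kit and Fcer1a in 71. Over the 15 growth factor and cytokine receptor genes listed, 4 of 8 tested were higher and none lower, with a median log2 ratio of 1.81. Besides Kit and Il1rl1 these were Csf2rb2, a beta chain of the interleukin-3 receptor, at 55.0 CPM, against 10.6 CPM, and Tgfbr1, a receptor for TGF-beta, at 114 CPM, against 16.5 CPM.

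Mrgprb1, a Mrgpr receptor gene of mast cells, had 2386, 1089, 1083 and 819.6 CPM in mast cell barcodes of suffixes 1 to 4, against 3.01, 0.0679, 0.138 and 0.0908 CPM in the others. Mrgprb2, the receptor through which basic peptides and many drugs activate mouse mast cells, had 546, 436, 361 and 351 CPM, against 1.14, 0, 0.0276 and 0.0389 CPM. One or the other had a UMI in 103 of 113 barcodes, and both in 57. These genes and Mrgprx2 lie near each other on chromosome 7, and Mrgprx2 had 271 CPM, against 0.126 CPM; as related copies they may share reads. Of 29 receptor genes in the matrix out of 30 in this list, 17 were tested, 10 were higher and 2 lower. The shares over all genes tested were 8.83% higher and 5.85% lower. P2rx7, an ATP-gated channel, had 279 CPM, against 27.0 CPM, and Adora3, an adenosine receptor, 123 CPM, against 0.439 CPM. The receptors for complement fragments were the 2 lower ones, with C3ar1 at 25.4 CPM, against 155 CPM, and C5ar1 at 8.47 CPM, against 90.7 CPM. Ednra, an endothelin receptor, had 28 UMIs in mast cell barcodes, all in suffix 1, where the level was 176 CPM; the other three suffixes had 0 UMIs, which allows up to 163, 72.2 and 176 CPM in suffixes 2, 3 and 4 (3 UMIs per suffix). The suffix 1 level lay above these limits in suffixes 2 and 3 and about at the limit in suffix 4. Hrh4, a histamine receptor, had 0 UMIs. Of 8 inhibitory receptor genes tested, Cd200r3, also known from basophils, was higher at 106 CPM, against 0.0916 CPM, and Siglecg, known from B cells, was lower at 4.23 CPM, against 58.9 CPM.

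Transcription factors of the lineage were led by Gata2, a factor needed for mast cells, with 954, 163, 433 and 117 CPM in mast cell barcodes of suffixes 1 to 4, against 1.55, 0.0543, 0 and 0.0519 CPM in the others. The Gata2 level of suffix 2 equals 3 UMIs, and that of suffix 4 lay under the 176 CPM of 3 UMIs there. Of 31 listed factors 23 were tested, of which 7 were higher and 2 lower, with a median log2 ratio of 0.89. All genes tested had shares of 8.83% higher and 5.85% lower. The higher ones included Mitf, mutated in mice that lack mast cells, at 207 CPM, against 24.4 CPM; Tal1, a partner of GATA factors, at 262 CPM, against 0.599 CPM; and Myb, a factor of blood progenitors, at 351 CPM, against 0.412 CPM. Meis2, a homeobox factor among the 25 genes with the largest ratio, had 322 CPM, against 0.157 CPM, with UMI counts of 69, 2, 5 and 0 in mast cell barcodes of suffixes 1 to 4. The lower ones were Cebpa and Cebpb, factors of myeloid cells, with 16.9 and 271 CPM in mast cell barcodes and 88.0 and 1103 CPM in the others. Spi1, encoding PU.1, had 84.7 CPM, against 260.2 CPM, which is short of the rule.

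Genes of lipid mediators differed in both directions. Hpgds, prostaglandin D synthase, had 178 CPM in mast cell barcodes and 1.40 CPM in the others. Cyp11a1, which makes pregnenolone from cholesterol, had 241 CPM, against 0.439 CPM. These were the 2 higher genes among 9 tested of 20, and Alox15, a lipoxygenase of large peritoneal macrophages, was the 1 lower gene at 313 CPM, against 2101 CPM. All genes tested had shares of 8.83% higher and 5.85% lower. The enzymes of leukotriene C4, a known mast cell product, did not pass the rule as higher. Alox5 had 313 CPM, against 97.0 CPM, whereas Ltc4s had 232, 327, 746 and 937 CPM in mast cell barcodes of suffixes 1 to 4, against 674, 1079, 1098 and 1142 CPM in the others. Without 17 mast cell barcodes that also carried macrophage transcripts, Ltc4s was at 71.1 CPM in mast cell barcodes, resting on 12 UMIs.

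Of 30 cytokine and chemokine genes, 13 had 0 UMIs in mast cell barcodes and 9 reached 50 CPM in either set, of which 4 were higher and 2 lower. The shares over all genes tested were 8.83% higher and 5.85% lower. Ccl2, a chemokine for monocytes, had 452, 218, 409 and 293 CPM in mast cell barcodes of suffixes 1 to 4, against 1.09, 1.56, 1.13 and 1.34 CPM in the others. It was present in 64 of 113 barcodes and above the others in every suffix. Il4, interleukin-4, had 80.4 CPM, against 0.0764 CPM, from 19 UMIs in 17 barcodes. Ccl7, a chemokine gene next to Ccl2 on chromosome 11, had 63.5 CPM, against 0.248 CPM, and Tnf, tumour necrosis factor, 50.8 CPM, against 1.11 CPM. Il5, Il13, Il3 and Il10 had 0 UMIs in mast cell barcodes. The 2 lower genes were Ccl9 and Cxcl2, with 123 and 4.23 CPM in mast cell barcodes and 561 and 54.1 CPM in the others.

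Of the machinery of secretion, 4 of 16 tested were higher and 1 lower. Among all 3523 genes 8.83% were higher and 5.85% lower, so 1 of 16 lower is near that share. Rab27b, a GTPase that docks granules, had 533 CPM in mast cell barcodes, against 0.107 CPM in the others. Cd63, a tetraspanin of the granule membrane used to follow degranulation, had 986 CPM, against 59.6 CPM. Stx3, a fusion protein, had 182 CPM, against 24.4 CPM, and Vamp8, a fusion protein of granules in many cells, had 292 CPM, against 311 CPM. In adhesion genes 4 of 14 tested were higher and 4 lower: Cadm1, a partner in binding to nerves and fibroblasts, had 195 CPM, against 1.14 CPM, and Itgam, the CD11b integrin of macrophages, 139.7 CPM, against 1018 CPM.

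Immediate early genes, which rise when cells are handled or triggered, were higher in 1 and lower in 4 of 12 tested. Over all 3523 genes 8.83% were higher and 5.85% lower, so 1 of 12 higher is near that share. Fos had 42.3 CPM in mast cell barcodes and 39.1 CPM in the others, Jun 63.5 and 75.7 CPM, and Ier3, the 1 higher gene, 233 and 44.9 CPM. Klf2, a zinc finger factor, was lower at 267 CPM, against 1452 CPM. Genes of cholesterol and lipid handling were lower in 3 of 13 tested and higher in 0; Plin2, a lipid droplet coat, had 97.3 CPM, against 417 CPM, and Fabp5, a fatty acid binding protein, 33.9 CPM, against 407 CPM. Of 22 genes of collagen receptors and matrix, 3 were tested, of which 1 was higher and 1 lower. The higher one was Adamts9, a secreted matrix protease, with 88.9 CPM, against 0.00764 CPM, from 21 UMIs in 15 barcodes, and the lower one was Fn1, fibronectin, with 1634 CPM, against 8938 CPM. The genes of collagen VI, the antibody's target, had 0 UMIs in mast cell barcodes for Col6a1, Col6a2 and Col6a3, and the collagen receptor genes Ddr2, Itga1, Itga10 and Itga11 had 0 as well. Of the 17 cell cycle genes found in the matrix, 2 were tested, Pcna and Stmn1, and neither passed the rule. Stmn1, a microtubule regulator, had 229 CPM in 18 mast cell barcodes, against 62.4 CPM, a log2 ratio of 1.89, but passed the rule at 2.57 under the limits of 500 genes and 10% mitochondrial UMIs. Leaving out suffix 1 gave 2.74 for it and leaving out suffix 2 gave 1.38. A single barcode of suffix 2, which also held 403 UMIs of macrophage genes, had 23 Stmn1 UMIs. The next highest mast cell barcode had 8. The barcode with 23 stayed in under the limits of 500 genes and 10% mitochondrial UMIs and when suffix 1 was left out. Stmn1 also passed at 2.31 with means of per-barcode CPM and at 2.83 with the other barcodes weighted to the suffix makeup. It passed at 2.10 with proteases, Srgn and mitochondrial genes out of the totals and at 2.11 without suffix 3. The part of that barcode in these ratios was not tested. Mki67, a marker of dividing cells, had UMIs in 2 of 113 barcodes.

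**Figure D2:**
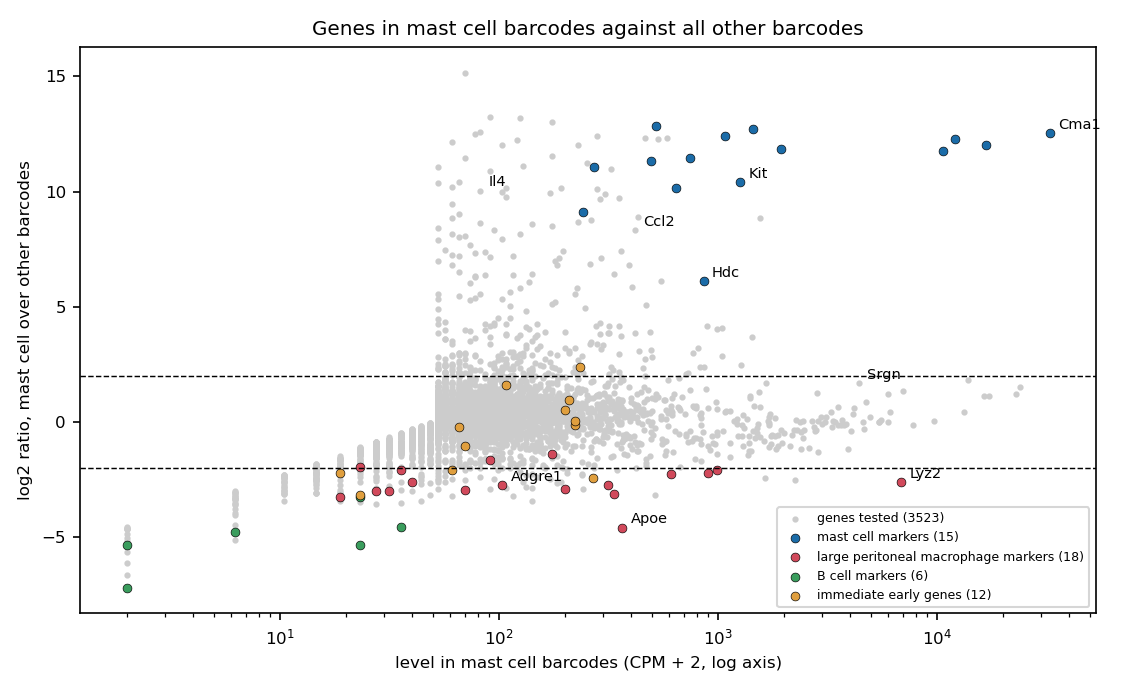
Each point is 1 of 3523 genes, with its level in mast cell barcodes (CPM plus 2, log axis) across and the log2 ratio of mast cell over other barcodes, with a prior count of 0.5, upwards; dashed lines stand at log2 ratios of 2 and -2 and colours mark the gene lists. The 15 mast cell markers lie above the upper line, with Hdc lowest of those named at 6.13, and the 18 large peritoneal macrophage markers lie below 0.

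Among the 25 genes with the largest ratio were also some outside the lists. Smpx, a small muscle protein gene on the X chromosome, had 174 CPM, against 0.0191 CPM, with 32, 1, 7 and 1 UMIs in mast cell barcodes of suffixes 1 to 4. Rgs13, a regulator of G protein signalling that restrains mast cells, had 279 CPM, against 0.252 CPM. Slc45a3, a transporter gene, had 249.7 CPM, against 0.103 CPM, and Gcsam, a lymphocyte signalling gene, 190.5 CPM, against 0.168 CPM. Of the 311 higher genes, 81 met the rule within each of the 4 suffixes taken alone. With so few UMIs in suffixes 2 and 4, about 1 UMI is 50 CPM there, so a gene that misses this count may have gone unseen.

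Within the 113 barcodes, the gene most like the summed rule genes was Fcer1a, with a Spearman rho of 0.557 across barcodes, among the 164 genes compared, those with a UMI in at least 50% of the barcodes. Next came Cyb5a, a cytochrome, at 0.408, Srgn at 0.405, Rac2, a GTPase of blood cells, at 0.381 and Ly6a, a surface protein, at 0.364. Without the 17 barcodes with macrophage transcripts these values were 0.544, 0.365, 0.422, 0.272 and 0.265. Pairs of rule genes had rho from 0.475 for Cma1 and Cpa3 to 0.728 for Mcpt4 and Tpsb2, all chosen by their levels, and without those 17 barcodes from 0.311 to 0.650 for the same pairs. The points share library and total UMIs, so these are descriptions.

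Transcripts of other cell types were present in mast cell barcodes. Of 11 T and NK cell markers 10 had 0 UMIs, the 3 Cd3 genes by the rule itself, as did all 8 dendritic cell markers, all 10 mesothelial and stromal markers and all 5 erythroid markers. These lists were low in the other barcodes too, where they summed to 67.0, 26.0, 6.71 and 48.6 CPM in that order. A count of 0 in mast cell barcodes allows up to 12.7 CPM per gene, so these zeros do not show absence. Macrophage genes were not at 0: of 19 large peritoneal macrophage markers 18 were tested, 15 were lower and none higher, and their summed level was 5858, 24559, 15404 and 36181 CPM in mast cell barcodes of suffixes 1 to 4, against 71487 CPM in the other barcodes pooled. The only marker of this list with 0 UMIs in mast cell barcodes was Fcgr1, an IgG receptor gene, at 28.3 CPM in the others. Of the 15 lower markers, Adgre1, C1qa, C1qb, C1qc, Cd68, Cxcl13, Garnl3, Lyz2, Tgfb2 and Timd4 missed the rule under at least 1 other setting. Without suffix 1 the log2 ratio was -1.15 for C1qb, -1.50 for Cd68 and -1.74 for Lyz2. None of these markers changed sign. Lyz2, lysozyme, had 3560.0, 17262, 8592 and 22481 CPM in mast cell barcodes, against 17713, 36385, 45773 and 55236 CPM in the others. Adgre1, which encodes F4/80, the protein of the sort, had 69.1, 0, 217 and 234 CPM in mast cell barcodes, against 424, 476, 921 and 836 CPM in the others, and had a UMI in 13 of 113 mast cell barcodes. Of 11 markers of small or monocyte-derived macrophages 7 were tested, 5 were lower and none higher; the other two, Folr2 and Mrc1, had log2 ratios of 0.43 and 0.24. Of 7 eosinophil markers 5 and of 9 neutrophil markers 7 had 0 UMIs, and none of either list passed the rule as higher. In the other barcodes these lists summed to 4.34 and 154 CPM. Of the 9 B cell markers, 6 were tested and all 6 were lower, Cd79a by the rule itself. The rule leaves out barcodes with a Cd79a UMI, whereas 2952 barcodes with at least 5 UMIs of B cell genes stay among the others. The remaining B cell markers are therefore not independent of the choice of members.

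Macrophage transcripts sat mainly in 17 barcodes. Counting UMIs of C1qa, C1qb, C1qc, Lyz2 and Adgre1, 17 mast cell barcodes had 10 or more, 8 in suffix 1, 1 in suffix 2, 5 in suffix 3 and 3 in suffix 4. Without them 96 barcodes remained, 69, 6, 16 and 5 by suffix, and the summed macrophage markers were at 1519, 1828, 2173 and 3209.8 CPM. Adgre1 was then at 17.8 CPM, Lyz2 at 859 CPM and Cma1 at 41015 CPM in mast cell barcodes. With 96 barcodes, 418 genes were higher and 390 lower by the same rule, against 311 and 206 with all 113, and 309 of the higher and 201 of the lower genes were shared. No doublet caller was run, and whether these 17 barcodes hold 1 cell or more was not tested.

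**Figure D3:**
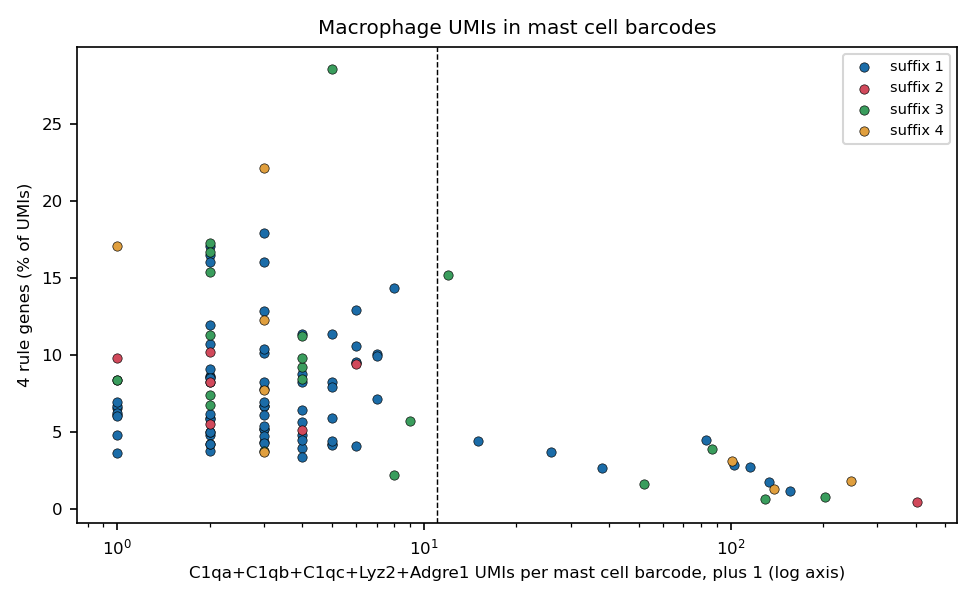
Each point is 1 mast cell barcode, coloured by suffix, with its UMIs of C1qa, C1qb, C1qc, Lyz2 and Adgre1 plus 1 across on a log axis and the share of its UMIs from the 4 rule genes upwards. The dashed line stands at 10 UMIs; the barcodes left of it reach 28.6%.

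Genes lower in mast cell barcodes included many of macrophages and B cells. The 10 with the smallest ratio were Cd79a, which the rule fixed at 0, and Iglc2, Igkc, Plxdc2, Apoe, Ighm, Arg1, Fabp5, Mpeg1 and H2-Ab1. Iglc2, Igkc and Ighm are also genes of B cells, whose barcodes the rule leaves out by Cd79a. Iglc2, an antibody light chain gene, had 0 UMIs in mast cell barcodes, against 209 CPM in the others, at least 16.5-fold lower with 3 UMIs over the set as the floor. Mpeg1, a pore protein of macrophages, had 21.2 CPM, against 262 CPM. Not all of these calls held under other settings. Plxdc2 missed the rule at a log2 ratio of -1.93 when members needed only 10 UMIs of the rule genes. Arg1 and Mpeg1 missed it at -1.999 and -1.87 without suffix 1. Of the 206 lower genes 15 had 0 UMIs in mast cell barcodes, where the size of the ratio depends on the prior count. Apoe, the gene deleted in Apoe-/- mice, had 18.8, 1089, 72.2 and 3513 CPM in mast cell barcodes of suffixes 1 to 4, against 20.5, 771, 697 and 28428 CPM in the others. It was high in the other barcodes of suffix 4 alone, and its pooled ratio is mainly that of suffix 4; no suffix was given a group from this.

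Levels in suffixes 1 and 3, the largest sets, were compared in the 69 and 16 barcodes without macrophage transcripts; suffixes 2 and 4 left most genes with few UMIs. One barcode of suffix 3 held 1413 UMIs of the 4 rule genes among 4944 UMIs in all, so each ratio is given with and without it. The log2 ratio of suffix 1 over suffix 3 was -0.97 (-1.05 to -0.88) for Cma1 with that barcode and -0.66 (-0.76 to -0.56) without it. For Mcpt4 it was -0.96 (-1.07 to -0.84) with and -0.16 (-0.31 to -0.0049) without that barcode, and for Cpa3 -0.21 (-0.36 to -0.05) with and 0.47 (0.26 to 0.68) without. Tpsb2 stood at -0.06 (-0.23 to 0.11) with and 0.50 (0.28 to 0.73) without it. Which suffix had more Cpa3 thus turned with 1 barcode, and the lower Mcpt4 of suffix 1 rested largely on it. Fcer1a was lower in suffix 1 both ways, at -1.35 (-1.72 to -0.95) with and -0.89 (-1.34 to -0.39) without the barcode. Srgn was lower in suffix 1 as well, at -1.04 (-1.29 to -0.79) with and -1.10 (-1.37 to -0.82) without it, as was Cd63, at -1.13 (-1.61 to -0.62) with and -0.93 (-1.47 to -0.32) without it. Both were lower in suffix 1 in the other barcodes too, with log2 ratios of suffix 1 over suffix 3 of -1.66 (-1.68 to -1.64) for Srgn and -0.59 (-0.66 to -0.52) for Cd63. For Mrgprb1 the ratio was 0.56 (0.11 to 1.08) with and 0.44 (-0.04 to 1.00) without the barcode, and for Kit, Il1rl1, Tph1 and Ccl2 the interval held 0 both ways. Median depth in these barcodes was 1814 UMIs in suffix 1 and 1127 in suffix 3, and the part of depth in the differences was not tested.

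**Figure D4:**
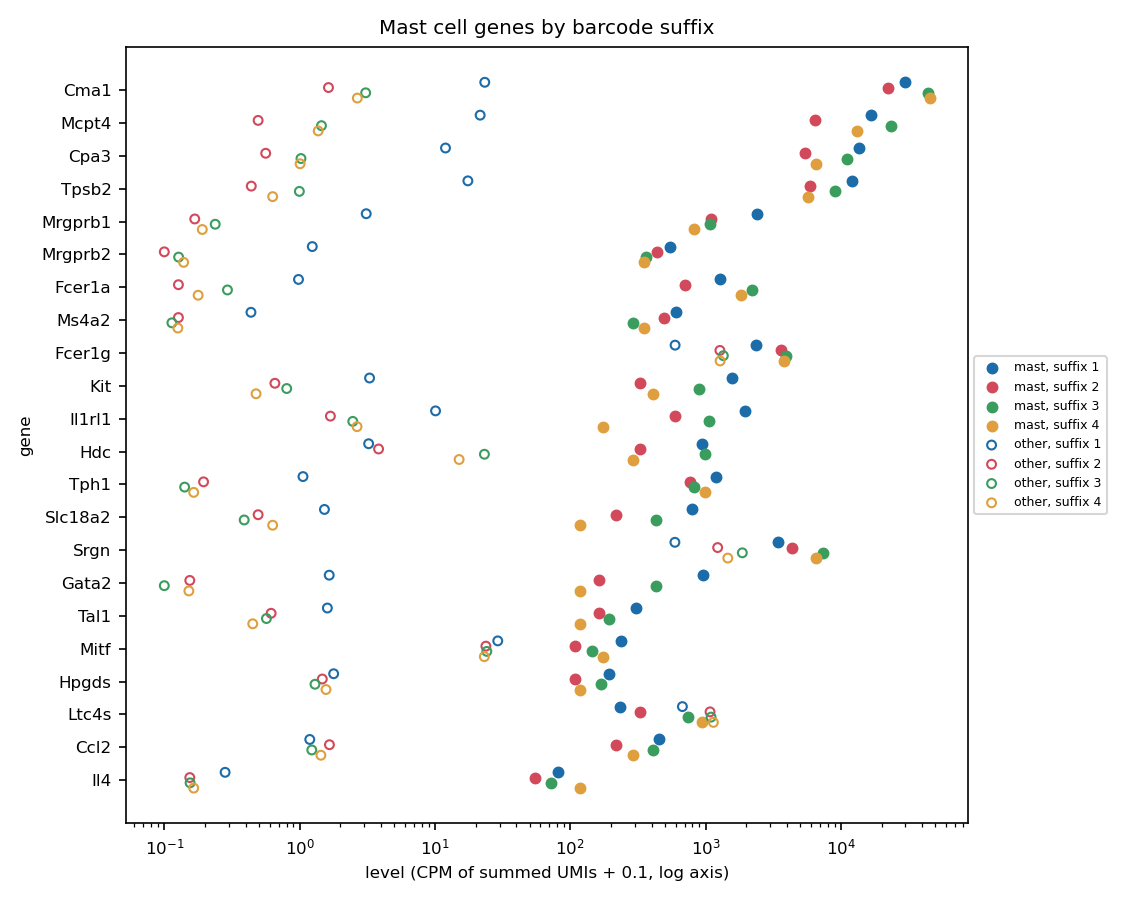
Level of each gene, as CPM of summed UMIs plus 0.1 on a log axis, in mast cell barcodes (filled) and in other barcodes (open) of suffixes 1 to 4, shown in 4 colours. Filled and open points are apart in every suffix for the genes from Cma1 to Ms4a2, whereas for Ltc4s the filled points lie at or left of the open ones.

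Shares of barcodes with a UMI depend on depth, so each barcode was thinned to 1000 UMIs, which left out 15 mast cell barcodes and 301 others. At that depth Cma1, a rule gene, was found in 100% of 98 mast cell barcodes and 0.779% of 22843 others, which the rule largely sets. Kit was found in 74.5%, against 0.101%; Fcer1a in 65.3%, against 0.0482%; Hdc in 64.3%, against 1.08%; and Ccl2 in 36.7%, against 0.0919%. Adgre1 was found in 4.08% of mast cell barcodes, against 42.5% of the others, and the 4 mast cell barcodes with it were all among the 17 with macrophage transcripts. Unthinned, the shares in mast cell barcodes were 83.2% for Kit, 77.0% for Fcer1a, 75.2% for Hdc, 56.6% for Ccl2 and 11.5% for Adgre1.

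The rule genes were also counted outside the members, in barcodes with fewer than 10 UMIs of them, to give the background against which their UMIs in members stand. There they summed to 57.7, 2.73, 6.15 and 4.54 CPM in suffixes 1 to 4, the same order of suffixes as for the share of mast cell barcodes. In barcodes with 10 or more C1q UMIs and no Cd79a UMI, a macrophage class, the levels were 63.6, 2.67, 5.79 and 4.36 CPM. In barcodes with at least 5 UMIs of Cd79a, Cd79b and Ms4a1, a B cell class, they were 41.3, 2.68, 10.7 and 7.61 CPM. In suffix 1 the interval of the macrophage class, 60.0 to 67.4 CPM, lay above that of the B cell class, 38.2 to 44.7 CPM. In suffixes 3 and 4 it lay below, and in suffix 2 the intervals overlapped. In suffix 1, 34.4% of the other barcodes had at least 1 such UMI, and the share of free RNA in these counts was not tested. With the barcodes at 10 or more rule gene UMIs included, 5 in suffix 1 and 2 in suffix 4, the levels were 74.0 CPM in suffix 1 and 5.28 CPM in suffix 4. Of barcode sequences, 52 occurred under more than 1 suffix, and 1 mast cell barcode was among them, whose partner had 0 rule gene UMIs.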

How the data were processed

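Single-cell 3′ RNA libraries of sorted peritoneal cells from 4 samples were analysed from 1 matrix. It holds raw counts of UMIs, whole numbers as the authors deposited them, over 31253 genes and 26811 barcodes, and its header names Cell Ranger 5.0.1. CASAVA 1.8, Seurat and mm10 appear in the submitters' processing notes. Cell calling and the handling of introns, which can change UMI counts, are not stated in the labels. No sample, row or barcode was assigned to a group from its values.

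Members were chosen by a rule on these counts, and the members and the 31 gene lists were chosen with earlier results of these data known, so nothing here is independent of them. UMIs were summed over barcodes and scaled to CPM. A log2 ratio of mast cell over other barcodes used a prior count of 0.5; a gene was called at a log2 ratio of at least 2, or at most -2, and at 50 CPM in the higher set. Genes with 50 CPM in either set count as tested. A gene can enter through mast cell barcodes alone, where it is high, so this limit sets counts and medians in part. Medians of lists are over tested genes. Over all listed genes in the matrix they were 10.8 for proteases, 2.20 for granule building and 6.13 for amines. They were 1.05 for the IgE receptor list, 1.18 for growth factor receptors and 1.15 for transcription factors. Intervals are exact (Poisson for sums, Clopper-Pearson for shares, conditional binomial for ratios), and UMI intervals cover counting error only. Depth was 489 to 9610 UMIs per mast cell barcode. Named genes were the 25 of largest ratio (at 50 CPM, with a UMI in 20% of mast cell barcodes), the 10 of smallest ratio (at 200 CPM in the others), list members, and the 5 most like the rule genes, which were themselves left out of that ranking. The other classes, the limit of 10 macrophage UMIs at which barcodes were set aside for levels, thinning to 1000 UMIs and the promoter words were set after the counts were seen. Positions are from GENCODE M21 and promoters from RefSeq GRCm38.p6; 11 of 12 genes looked up had an entry, all but Tpsb2. Ratios were tested on simulated data, where raised genes were recovered but some lowered genes were missed. The levels of the missed genes were not examined. Software was Python 3.11.15, numpy 2.4.6, scipy 1.17.1 and pandas 2.3.3. Other processing settings are compared in the closing section.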

Additional observations from a re-analysis of the deposited data

How the results depend on the processing

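With limits of 500 genes and 10% mitochondrial UMIs, mast cell barcodes numbered 43, at 0.206% over all suffixes, 0.748% in suffix 1 and 0.151% in suffix 3. Leaving out 1 suffix at a time gave 36 to 106 barcodes and 0.197 to 0.630%, the lowest without suffix 1. Without barcodes with macrophage UMIs 390 genes were lower, with means of per-barcode CPM 347 were lower, and with a minimum of 10 CPM 745 were higher and 547 lower. Thinned to 1000 UMIs, a choice made after seeing the data, the share with a UMI was 74.5% for Kit, 65.3% for Fcer1a, 64.3% for Hdc, 36.7% for Ccl2 and 4.08% for Adgre1; Adgre1 was at 38.1% when thinned to 3000 UMIs, which kept 21 barcodes, 12 of them with 10 or more macrophage UMIs, and all 8 barcodes with Adgre1 were among these 12. Unthinned, Adgre1 was at 3.13% in the 96 barcodes without macrophage UMIs, beside 11.5% in all 113. Rule gene levels outside the members, with barcodes at 10 or more rule gene UMIs, were 74.0 CPM in suffix 1 and 5.28 CPM in suffix 4, also a choice made after seeing the data. Without the suffix 3 barcode with most rule gene UMIs, another choice made after seeing the data, the log2 ratio of suffix 1 over suffix 3 for Cpa3 was 0.47 and so changed sign. The cause of these changes was not tested. Of 220 log2 ratios of named and listed genes none reversed sign among the called ones in any of the 14 alternatives tried; leaving out suffix 1 moved 109 of them beyond their counting interval. Of 121 called genes among the 220, 15 higher and 28 lower ones missed the rule under at least 1 of 13 alternatives (all but the 10 CPM minimum), 33 of them without suffix 1. The higher ones were Adora3, Ccl7, Cd200r3, Chst11, Csf2rb2, Ednra, Fyn, Gpr65, Inpp5d, Itga2b, Itga9, Ptger3, Runx3, Sytl3 and Tnf. Among macrophage markers the lower ones were Adgre1, C1qa, C1qb, C1qc, Cd68, Cxcl13, Garnl3, Lyz2, Retnla, Tgfb2 and Timd4. The other lower ones were Arg1, Btg2, C3ar1, Ccl9, Cebpa, Cebpb, Cxcl2, Dusp1, Ebf1, Itgb2, Klf2, Klf4, Mpeg1, Plin2, Plxdc2, Siglecg and Stxbp3. Another 32 genes passed the rule under at least 1 of these alternatives, 26 of them without macrophage UMIs, where Ltc4s was lower at -3.82 and Folr2 at -3.11. A gene with 0 UMIs in mast cell barcodes may be at up to 12.7 CPM. No paired analysis was possible because the suffixes carry no replicate numbers and no test was made.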
